A study of Mus musculus with 16 samples.

Results

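The genes described here are 39 genes of the lysosome, 24 of them enzymes that cleave proteins or sugar chains, 8 lipid enzymes and soluble proteins, and 7 proteins of the lysosomal membrane. They were listed by name as well known lysosomal hydrolases and membrane proteins. No measured value enters the rule, although earlier results of these data were known when the list was made, and each gene is represented by its brightest detected probe. All 39 were among the 14095 genes tested, out of 22917 genes that could be matched to a probe. Primary podocytes, the epithelial cells that wrap the glomerular capillaries, were grown out of bead-isolated glomeruli of male Jcl:ICR mice, and their total RNA was hybridised to one-colour Agilent mouse expression arrays, 4 samples to each of 4 groups. Tsc2flox/flox mice carry loxP sites around exons 3 and 4 of Tsc2 and no Cre, and served as controls. In Tsc2Δpodocyte mice these exons are removed by a Cre transgene active in podocytes. Untreated mice of both genotypes were 4 weeks old, and mice of both genotypes given rapamycin, an inhibitor of mTORC1, for 1 week were 5 weeks old.

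Lysosomes are acidic organelles in which hydrolases break down material brought in by endocytosis and autophagy. Most of these enzymes are tagged with mannose 6-phosphate in the Golgi apparatus and carried to the lysosome by receptors, while heavily glycosylated proteins line the membrane and transporters export the products. mTORC1, which the TSC1 and TSC2 proteins restrain, is recruited to the lysosomal surface when amino acids are plentiful and regulates the transcription factors of the TFEB family, which bind E-boxes in the promoters of many lysosomal genes.

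The signal that marks the 75th percentile of an array lay between 349 and 468 units, and correlations between arrays lay between 0.980 and 0.990 within groups. The untreated samples filled 1 slide and the rapamycin samples another, so slide, age and rapamycin cannot be told apart. Both genotypes were on each slide, but each genotype kept its own row of array positions, and the effect of row cannot be told apart from that of genotype. Tsc2 was lower in Tsc2Δpodocyte than in Tsc2flox/flox podocytes without rapamycin (log2 fold change -1.35, standard error 0.22, adjusted p = 0.00097 from limma) and with it (-0.99, standard error 0.22, adjusted p = 0.0124), with no overlap between the arrays of the groups. Podocyte markers were well above background in every group, 11 of 12 on all Tsc2Δpodocyte untreated arrays and 12 of 12 in the other groups. Markers of other cells were present as well, with 18 of 19 macrophage and leukocyte markers above background on all 4 arrays of each group. Whether each sample came from its own mouse is not given in the sources used here, and p-values cover no more than the variation among the 4 samples of a group, part of which may be technical. The Tsc2 values are those of the brighter of 2 detected probes. The other probe is not given here, and whether either lies in the removed exons was not checked.

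Without rapamycin, lysosomal genes were more often higher than lower in Tsc2Δpodocyte podocytes. Of the 39 genes 18 were higher, 1 was lower and 20 did not pass the test at an adjusted p of 0.05. Among all genes tested 10.3% were higher and 9.20% were lower. With an additional fold of at least 1.5 there were 12 lysosomal genes higher, against 6.18% of all genes. The median log2 fold change of the 39 genes was 0.47, against -0.01 for all genes. For 20 of the 39 every Tsc2Δpodocyte array lay above every Tsc2flox/flox array, which held for 13.5% of all genes. For 0 of the 39 every array lay below, and the share of all genes for which this held was not counted. The 4 roles contributed unequally, with 5 of 9 proteases, 7 of 15 glycosidases and glycan sulfatases, 2 of 8 lipid enzymes and soluble proteins and 4 of 7 membrane proteins higher, and whether these shares differ was not tested.

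**Figure D1:**
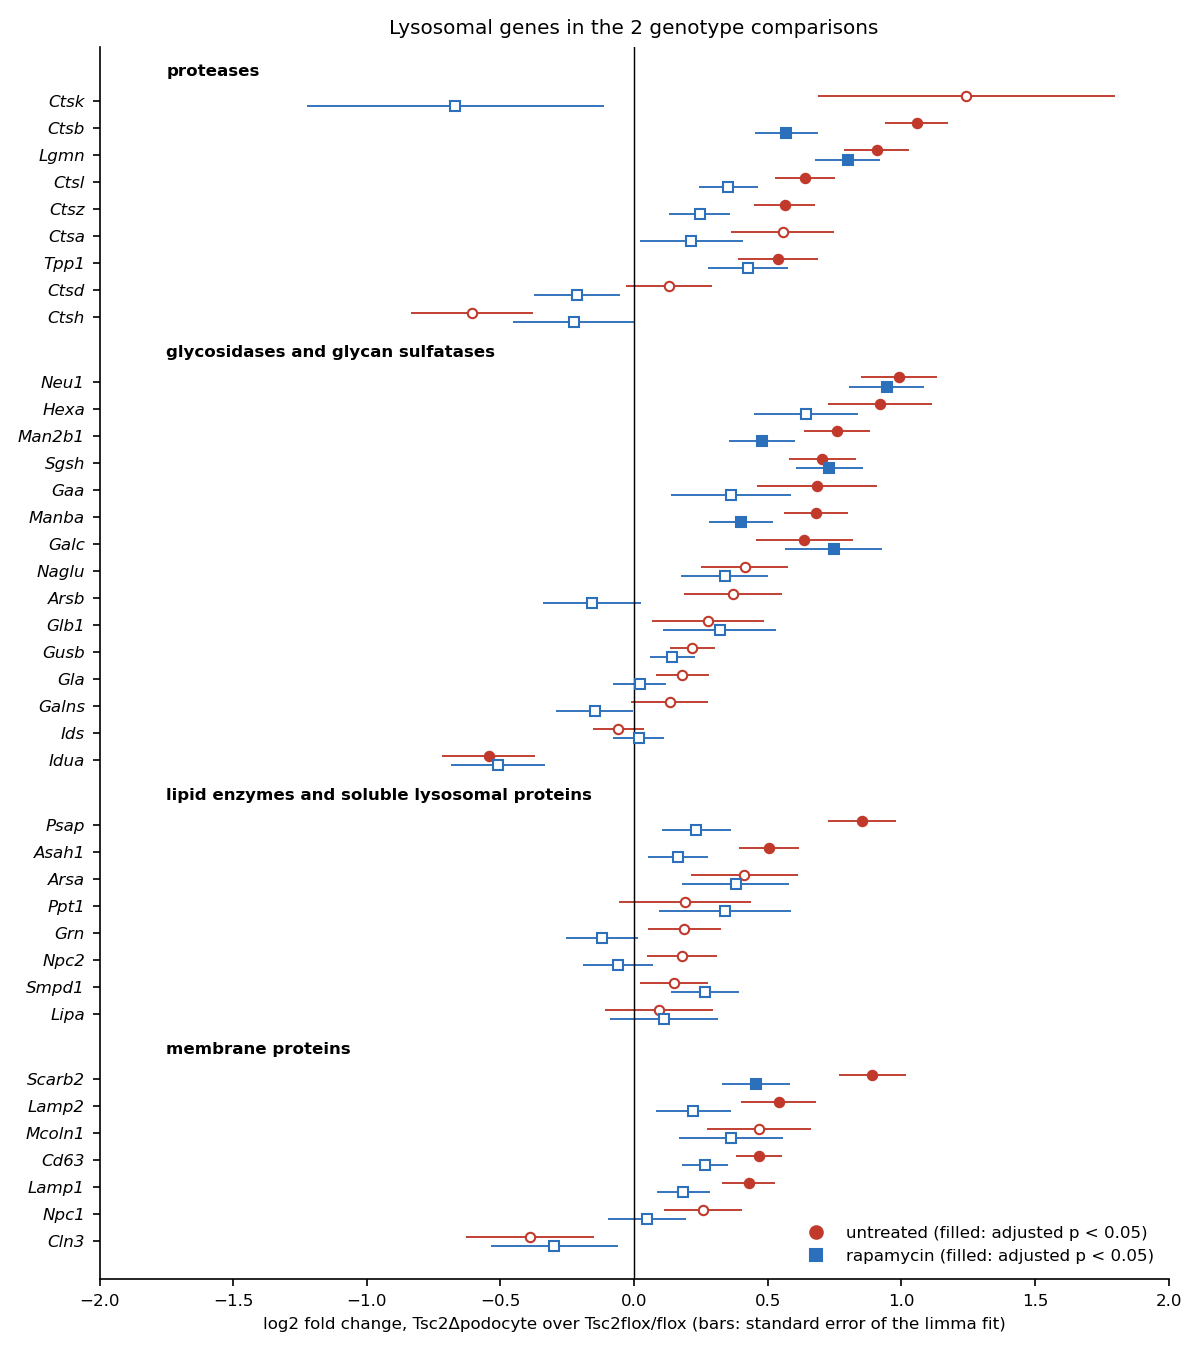
Log2 fold change of Tsc2Δpodocyte over Tsc2flox/flox podocytes for 39 lysosomal genes, untreated (circles) and with rapamycin (squares), with standard errors of the limma fit and filled symbols at an adjusted p under 0.05. Untreated, 18 genes are filled to the right of 0 and Idua to its left, and with rapamycin 8 are filled, all to the right.

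Among the proteases, Ctsb, Lgmn, Ctsl, Ctsz and Tpp1 were higher in untreated Tsc2Δpodocyte podocytes. Values are normalized log2 signals, the log2 of the signal relative to the 75th percentile of its array, and are given in the order of replicates 1 to 4. Ctsb, the cysteine protease cathepsin B, read 7.16, 7.38, 6.81 and 7.01 on the Tsc2Δpodocyte arrays and 6.01, 5.96, 6.15 and 6.02 on the Tsc2flox/flox arrays. The lowest Tsc2Δpodocyte value thus stood clear of the highest control value, a 2.08-fold difference (log2 fold change 1.06, standard error 0.12, adjusted p = 0.000105). Lgmn, or legumain, an asparaginyl endopeptidase that also processes other cathepsins, read 5.20, 5.38, 5.08 and 4.98 against 4.36, 4.08, 4.40 and 4.18 (log2 fold change 0.91, standard error 0.12, adjusted p = 0.000347). Ctsl, or cathepsin L, read 7.73, 7.77, 7.26 and 7.37 against 6.86, 6.83, 6.87 and 6.999 (0.64, standard error 0.11, adjusted p = 0.00176). For both genes the groups did not overlap, and in Ctsl the spread among Tsc2Δpodocyte arrays (SD 0.25, n = 4) exceeded that among controls (SD 0.08, n = 4). Ctsz, the carboxypeptidase cathepsin Z, read 4.19, 4.30, 4.14 and 4.28 against 3.82, 3.41, 3.81 and 3.61, again without overlap (0.56, standard error 0.11, adjusted p = 0.00433). Tpp1, a tripeptidyl peptidase, had overlapping groups (0.54, standard error 0.15, adjusted p = 0.0242). Its call ended without Tsc2Δpodocyte replicate 1 or 2 or without Tsc2flox/flox replicate 2, 3 or 4, at adjusted p between 0.0511 and 0.0757.

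The remaining 4 proteases did not pass. Ctsa, a carboxypeptidase that also protects Neu1 and Glb1 from degradation, had a log2 fold change of 0.56 (adjusted p = 0.0598) with no overlap between groups. Ctsk, a collagen-degrading cathepsin best known from osteoclasts, had the largest difference of all 39 genes, 1.24, but also the largest standard error, 0.56 (adjusted p = 0.135), and 1 of its 4 control arrays was not well above background. Ctsd, the aspartic protease cathepsin D, lay at 5.96, 6.26, 5.80 and 5.87 against 6.07, 5.47, 5.76 and 6.06 (0.13, adjusted p = 0.603). Ctsh, an aminopeptidase, was the 1 protease with a negative difference (-0.61, adjusted p = 0.0789). On 3 Tsc2Δpodocyte arrays it read 2.41, 2.43 and 2.52 and on replicate 3 it read 3.24, and without that array it passed the test at an adjusted p of 0.0214. The proteases therefore split, with Ctsb and Lgmn well separated by genotype and Ctsd and Ctsh not higher in the deleted cells.

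**Figure D2:**
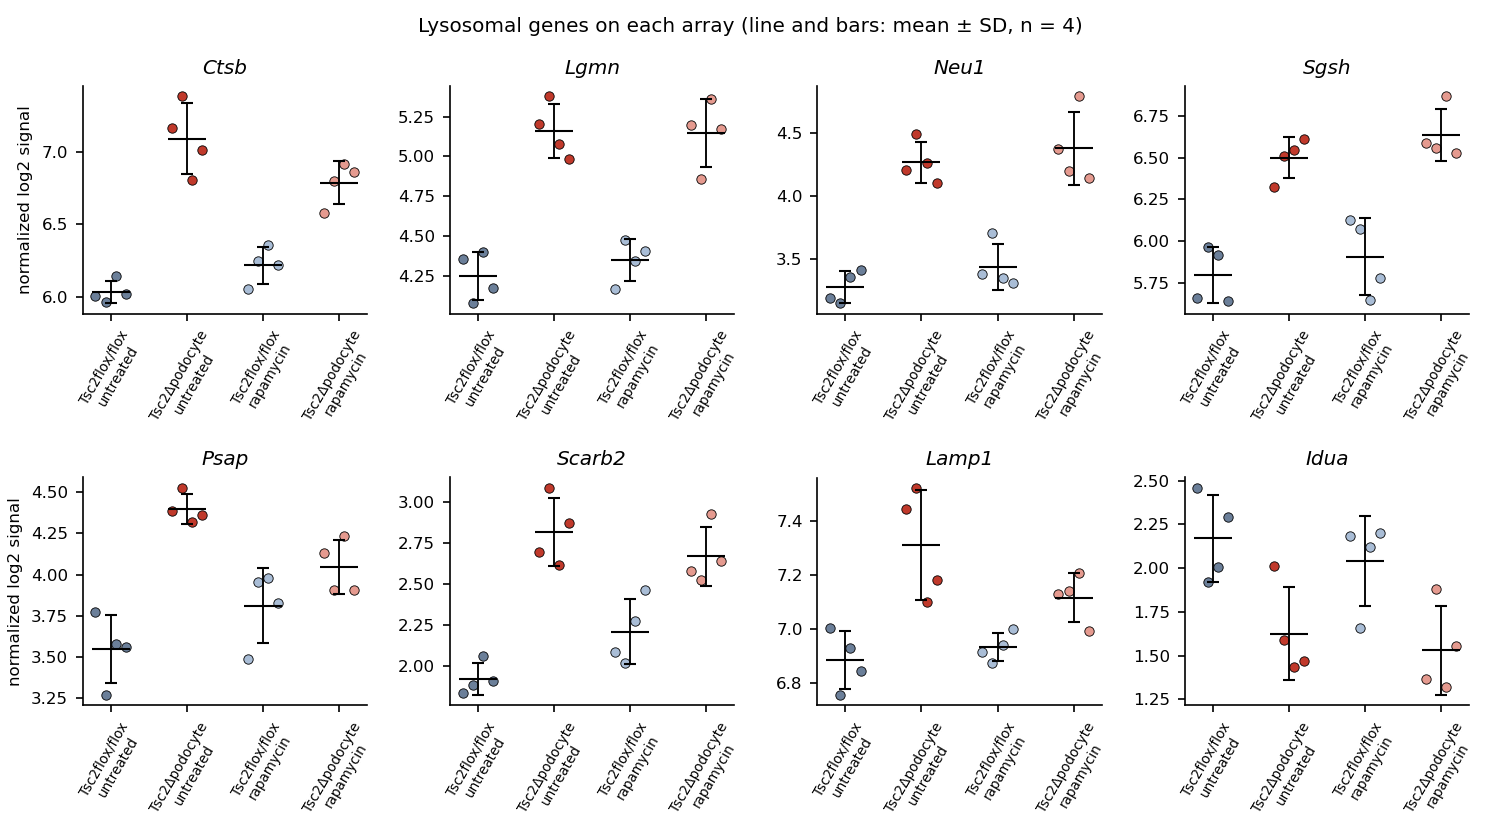
Normalized log2 signal (vertical axis) of 8 lysosomal genes on each of the 16 arrays by group, with mean and SD of 4 arrays as lines and bars. Untreated, the 4 Tsc2Δpodocyte arrays lie above the 4 control arrays for every gene shown but Idua, whose groups overlap.

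The glycosidases and glycan sulfatases, which take sugar chains of glycoproteins, glycolipids and glycosaminoglycans apart from their ends, held the only gene that fell. The largest rise was that of Neu1, the lysosomal sialidase. It read 4.20, 4.49, 4.26 and 4.11 against 3.19, 3.14, 3.36 and 3.41 (0.99, standard error 0.14, adjusted p = 0.000479), so that every deleted sample was above every control. Man2b1, the lysosomal alpha-mannosidase, read 2.51, 2.86, 2.41 and 2.46 against 1.91, 1.60, 1.90 and 1.79 (0.76, standard error 0.12, adjusted p = 0.00102). Manba, the beta-mannosidase that removes the last mannose of N-glycans, read 1.30, 1.30, 1.06 and 1.38 against 0.59, 0.69, 0.55 and 0.51 (0.68, standard error 0.12, adjusted p = 0.00183). Both mannosidases thus rose without overlap between groups. Sgsh, the sulfamidase of heparan sulfate breakdown, read 6.33, 6.51, 6.55 and 6.61 against 5.66, 5.97, 5.91 and 5.64 (0.70, standard error 0.12, adjusted p = 0.00196). Hexa, the alpha subunit of beta-hexosaminidase, rose by 0.92 (standard error 0.20, adjusted p = 0.00582), also without overlap.

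Galc, which removes galactose from myelin lipids, and Gaa, which breaks down glycogen, passed by smaller margins. Galc read -1.18, -1.27, -1.56 and -1.52 against -2.18, -1.97, -1.78 and -2.14 (0.64, standard error 0.18, adjusted p = 0.0267). The groups did not overlap, yet the call ended without Tsc2Δpodocyte replicate 1 or 2 or Tsc2flox/flox replicate 1, 2 or 4, at adjusted p between 0.052 and 0.0694. Gaa read 3.78, 4.23, 4.33 and 4.36 against 3.77, 3.13, 4.17 and 2.88 (0.68, standard error 0.23, adjusted p = 0.0491). Its control arrays fell apart into 2 higher and 2 lower ones, and its call ended without Tsc2Δpodocyte replicate 2, 3 or 4 or Tsc2flox/flox replicate 2 or 4, at adjusted p between 0.0991 and 0.142. Idua, the iduronidase of heparan and dermatan sulfate breakdown, read 2.01, 1.59, 1.44 and 1.47 against 2.46, 1.92, 2.01 and 2.29. It fell by 0.54 on the log2 scale (standard error 0.17, adjusted p = 0.0442), with the first deleted sample inside the range of the controls. That call ended in 6 of 8 fits that left out 1 array, those without Tsc2Δpodocyte replicate 2, 3 or 4 or Tsc2flox/flox replicate 1, 3 or 4, at adjusted p between 0.0504 and 0.112.

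The remaining 7 genes of sugar breakdown did not pass. The iduronate sulfatase Ids, which acts on the same glycosaminoglycans as Idua, read 3.17, 3.29, 3.08 and 3.12 against 3.16, 3.14, 3.33 and 3.27 (-0.06, standard error 0.10). The other 6 had positive differences between 0.13 and 0.41. They were Naglu, of heparan sulfate breakdown (0.41, adjusted p = 0.0914), the sulfatases Arsb (0.37, adjusted p = 0.178, with 1 control array not well above background) and Galns (0.13, adjusted p = 0.55), the beta-galactosidase Glb1 (0.28, adjusted p = 0.383), the beta-glucuronidase Gusb (0.22, adjusted p = 0.082) and the alpha-galactosidase Gla (0.18, adjusted p = 0.218). Of the genes tied to heparan sulfate above, Sgsh was higher, and Naglu and Ids did not pass. Idua was lower, by a call that ended in 6 of 8 fits that left out 1 array.

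Of the lipid enzymes and soluble proteins, Psap and Asah1 were higher. Psap, or prosaposin, the precursor of the small activator proteins that present sphingolipids to their hydrolases, read 4.38, 4.53, 4.32 and 4.36 against 3.77, 3.27, 3.58 and 3.56. All deleted samples were above all controls (0.85, standard error 0.13, adjusted p = 0.000653). Asah1, the acid ceramidase, read 3.76, 4.00, 3.80 and 3.95 against 3.51, 3.16, 3.45 and 3.37 (0.51, standard error 0.11, adjusted p = 0.00738), also apart. Arsa, the arylsulfatase that acts on sulfatides, read 2.82, 3.27, 2.90 and 2.66 against 2.97, 2.36, 2.45 and 2.23 and did not pass (0.41, adjusted p = 0.167). Neither did Npc2, which hands cholesterol to the membrane protein Npc1 (0.18, adjusted p = 0.361), the acid sphingomyelinase Smpd1 (0.15, adjusted p = 0.442) or the acid lipase Lipa (0.09, adjusted p = 0.782).

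For Grn and Ppt1 the answer depended on the probe. Grn encodes progranulin, a secreted protein that is taken to the lysosome and cut into granulins. Its brightest probe read 8.78, 8.47, 7.99 and 8.18 against 8.23, 8.23, 8.04 and 8.17 (0.19, standard error 0.14, adjusted p = 0.361). The second probe read 7.39, 7.67, 7.48 and 7.55 against 6.43, 6.21, 6.44 and 6.29 (1.18, standard error 0.13, adjusted p = 0.000123). The dimmest read 2.42, 2.80, 2.59 and 2.76 against 1.61, 1.11, 1.86 and 1.68 (1.08, standard error 0.18, adjusted p = 0.00144). On these 2 probes the groups were fully apart, on the brightest they overlapped, and why the probes differ was not tested. Ppt1, a thioesterase that removes palmitate from proteins, had a difference of 0.19 on its brightest probe (adjusted p = 0.63), where Tsc2Δpodocyte replicate 1 read 2.65 and the other 3 deleted samples between 3.84 and 4.21. Without that array the brightest probe passed at an adjusted p of 0.012, and the other 2 probes of Ppt1 passed with all arrays (0.51, adjusted p = 0.0272, and 0.49, adjusted p = 0.0145). Over the 11 genes with several detected probes, the probes gave the same verdict for 9, and Grn and Ppt1 were the exceptions. Counted by the brightest probe, neither is among the 18 genes called higher.

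**Figure D3:**
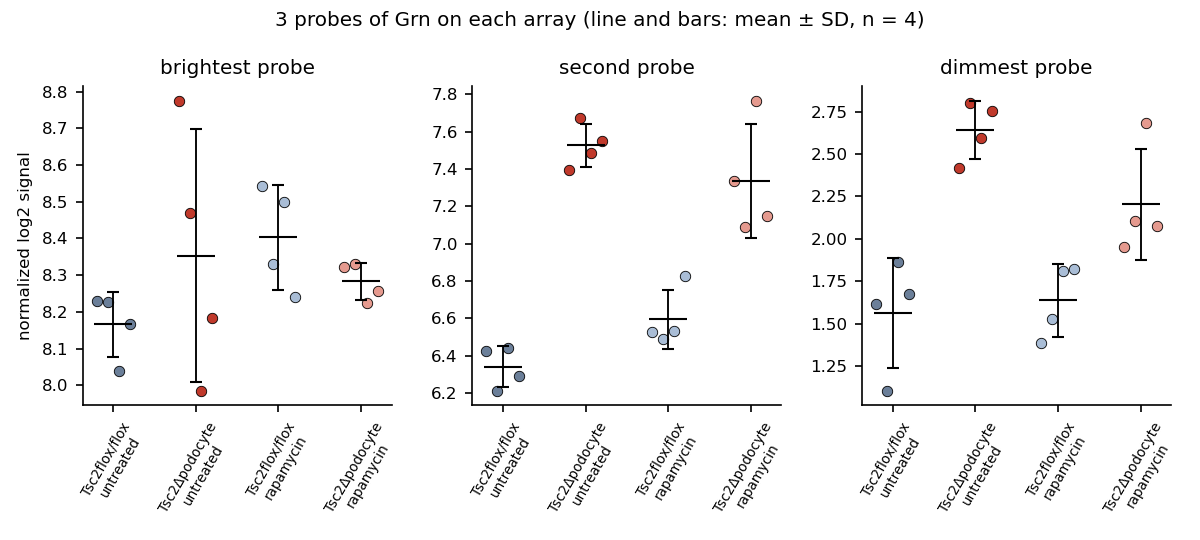
Normalized log2 signal (vertical axis) of the 3 detected probes of Grn on each of the 16 arrays, with mean and SD of 4 arrays as lines and bars. The genotypes overlap on the brightest probe (untreated log2 fold change 0.19) and are apart on the other 2 (1.18 and 1.08).

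Of the 7 membrane proteins, Scarb2, Cd63, Lamp1 and Lamp2 were higher. Scarb2, the receptor that carries glucocerebrosidase to the lysosome, read 2.70, 3.08, 2.62 and 2.87 against 1.84, 1.88, 2.06 and 1.91 (0.89, standard error 0.13, adjusted p = 0.000475). The tetraspanin Cd63, a marker of late endosomes and exosomes, read 7.99, 7.92, 7.65 and 7.74 against 7.42, 7.29, 7.39 and 7.32 (0.47, standard error 0.09, adjusted p = 0.00237). Neither gene had overlapping groups. Lamp1 and Lamp2 encode the most abundant glycoproteins of the lysosomal membrane. Lamp1 read 7.45, 7.52, 7.10 and 7.18 against 7.0045, 6.76, 6.93 and 6.85 (0.43, standard error 0.10, adjusted p = 0.00876), and Lamp2 read 4.70, 5.04, 4.59 and 4.58 against 4.18, 4.07, 4.32 and 4.18 (0.54, standard error 0.14, adjusted p = 0.0177). Both were apart by genotype, although Lamp2 lost its call without Tsc2Δpodocyte replicate 2 (adjusted p = 0.056) or Tsc2flox/flox replicate 2 (adjusted p = 0.0514). Mcoln1, the lysosomal calcium channel, was apart by genotype without passing (0.47, adjusted p = 0.11). The cholesterol exporter Npc1 (0.26, adjusted p = 0.237) and Cln3, the membrane protein lost in juvenile Batten disease (-0.39, adjusted p = 0.273), did not pass either.

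Across the 39 genes together, the median deviation of a gene from its own mean over the 16 arrays was 0.27, 0.49, 0.12 and 0.19 on the untreated Tsc2Δpodocyte arrays and -0.09, -0.32, -0.14 and -0.25 on the untreated controls. Replicate 2 was the extreme array of both groups, the highest among the deleted samples and the lowest among the controls. With the one or the other of these arrays left out, 14 of the 39 genes were higher in each fit.

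Levels of markers of other cells also differed between the genotypes. The macrophage and leukocyte markers had a median log2 fold change of 0.82 without rapamycin, 17 of 18 tested were positive and 2 passed, Cd68 (1.03, adjusted p = 0.019) and Cd52 (1.53, adjusted p = 0.0296), a share close to the 10.3% of all genes that were higher. Adgre1 (0.43, adjusted p = 0.52), Csf1r (0.64, adjusted p = 0.192) and Ptprc (0.94, adjusted p = 0.114) did not pass, and Spi1 was not tested because it was not well above background on all 4 arrays of any group. Cd68 and the cathepsin Ctss, both on this marker list, encode lysosomal proteins themselves, so the list is not independent of the lysosomal genes. Macrophages are rich in lysosomes, and the median deviation of these markers was 0.34, -0.23, 0.04 and 0.97 on the untreated Tsc2Δpodocyte arrays and 0.30, -1.05, -0.48 and -0.61 on the controls. On the deleted sample with the highest level of lysosomal genes, replicate 2, the macrophage markers were at their lowest for that group. Among the untreated controls both sets put the arrays in the same order, with replicate 1 highest and replicate 2 lowest. Leaving out the deleted sample with the highest macrophage level and the control with the lowest, a choice made after the data were seen, left 14 of the 39 genes higher and a median log2 fold change of 0.45. Among the arrays kept, the macrophage markers stood at 0.34, -0.23 and 0.04 in the deleted samples. The controls kept were at 0.30, -0.48 and -0.61, so the omission did not level these markers between the genotypes. Mesangial and smooth muscle markers were higher as well, 4 of 10 (Des 1.76, Itga8 1.42, Cnn1 0.96 and Pdgfra 0.73), and all 10 differences were positive. Of 8 parietal cell markers 2 were lower, Pax8 (-1.47) and Cdh6 (-1.64), and all 8 differences were negative. Of 5 tubule markers tested 1 was lower, Lrp2 (-1.57), with 3 differences negative and 2 positive. Among all genes 9.20% were lower. Of the 11 endothelial markers 0 passed and 1 was lower at an unadjusted p under 0.05, with 10 differences negative and 1 positive. Their median deviation ranged from -1.03 to 2.69 among untreated controls. Of all 14095 genes tested 6859 differences were positive and 7236 negative. The podocyte markers Wt1 (0.49, adjusted p = 0.0962) and Nphs1 (-1.07, adjusted p = 0.184) did not pass, and 0 of the 12 podocyte markers did (3 at an unadjusted p under 0.05). Their median deviation was -0.085, 0.66, -0.51 and -0.21 on the untreated Tsc2Δpodocyte arrays, which puts these arrays in the same order as the lysosomal genes do. On the untreated controls it was -0.52, -0.04, 0.02 and -0.19, a different order from that of the lysosomal genes. The part of any of these cell types in the lysosomal differences was not tested, and in bulk RNA fewer cells of a type and less RNA per cell cannot be told apart.

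**Figure D4:**
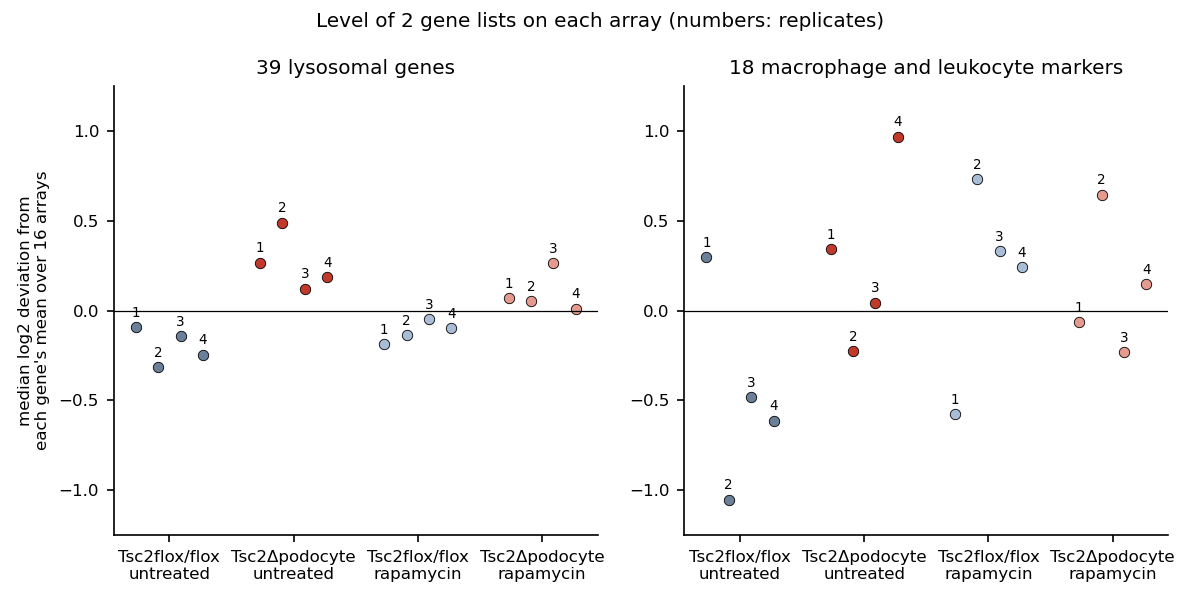
Median log2 deviation from each gene's mean over 16 arrays (vertical axis) for 39 lysosomal genes and for 18 macrophage and leukocyte markers, 1 point per array with its replicate number. The lysosomal genes lie between 0.12 and 0.49 on untreated Tsc2Δpodocyte arrays and between -0.32 and -0.09 on untreated controls, while the macrophage markers overlap between the genotypes.

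Other genes of the same organelle, outside the 39, were also more often higher than lower. Among 24 other genes, most of them lysosomal hydrolases, 10 were higher and 1, the hyaluronidase Hyal2 (-0.45), was lower. The lowest p-values belonged to the carboxypeptidase Scpep1 (0.87, adjusted p = 0.000479), the dipeptidyl peptidase Ctsc (0.98, adjusted p = 0.00146) and Dpp7, another dipeptidyl peptidase (1.61, adjusted p = 0.00179). Of 21 other membrane proteins 7 were higher and 1, the sialic acid exporter Slc17a5 (-0.59), was lower. Tmem192 (0.56, adjusted p = 0.00146), Laptm4b (0.63, adjusted p = 0.00252) and the acetyltransferase Hgsnat of heparan sulfate breakdown (0.59, adjusted p = 0.00391) led this list. Genes that carry hydrolases to the lysosome were represented by 7 of 15 higher and 0 lower, with 0 lower also at an unadjusted p under 0.05. They included the mannose 6-phosphate receptor Igf2r (0.82, adjusted p = 0.000951), the sorting receptor Sort1 (0.72, adjusted p = 0.00195) and the clathrin adaptor Gga2 (0.45, adjusted p = 0.00391). The cathepsin inhibitors Cst6 (1.23, adjusted p = 0.000701) and Cstb (0.52, adjusted p = 0.00207) were the 2 higher genes of 4 tested in their list. Of 8 transcription regulators of lysosomal genes 1 was higher, a share close to the 10.3% of all genes that were higher. It was Mitf, a relative of Tfeb (0.84, adjusted p = 0.0078). Tfeb itself (0.09, adjusted p = 0.738) and Tfe3 (0.09, adjusted p = 0.496), named here after their values were seen, did not pass. Fnip1 (0.34, adjusted p = 0.117) and Fnip2 (0.24, adjusted p = 0.124), partners of folliculin, did not pass either.

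The letters that the factors of the TFEB family bind stood in many of the promoters. RefSeq promoters (GRCm38.p6, 250 bases before to 50 after a start) could be matched to 34 of the 39 genes. The E-box CACGTG occurred in the promoters of 13 of these (38.2%), against 8.09% of 27025 genes with such a promoter. Its longer form TCACGTG, searched on both strands and always containing the shorter, occurred in 12 (35.3% against 4.29%), and the palindrome TCACGTGA in 5 (14.7% against 1.12%). Of all 32851 promoters of this length 7.15%, 3.77% and 0.974% held the 3 forms. These shares describe the letters only, and a match is not a bound site. Of the 12 genes whose promoter held TCACGTG 4 were higher in untreated Tsc2Δpodocyte podocytes and 0 lower, with a median log2 fold change of 0.42, while of the 22 without it 12 were higher and 1 lower, with a median of 0.54. The promoters of the 4 higher genes with the motif follow, from 5′ to 3′ along the gene, with TCACGTG or its reverse complement in capitals, since they join a promoter E-box with a change on the arrays.
Lgmn: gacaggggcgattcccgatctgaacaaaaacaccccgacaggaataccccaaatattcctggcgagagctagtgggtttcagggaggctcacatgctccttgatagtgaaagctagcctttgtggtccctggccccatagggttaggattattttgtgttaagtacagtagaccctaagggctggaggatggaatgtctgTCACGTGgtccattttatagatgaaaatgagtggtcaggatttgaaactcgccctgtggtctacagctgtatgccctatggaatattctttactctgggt
Sgsh: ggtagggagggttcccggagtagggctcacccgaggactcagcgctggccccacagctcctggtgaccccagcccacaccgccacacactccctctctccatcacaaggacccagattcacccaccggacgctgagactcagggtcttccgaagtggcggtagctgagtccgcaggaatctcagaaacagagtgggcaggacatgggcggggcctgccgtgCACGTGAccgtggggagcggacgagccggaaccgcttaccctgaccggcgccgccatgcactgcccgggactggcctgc
Lamp1: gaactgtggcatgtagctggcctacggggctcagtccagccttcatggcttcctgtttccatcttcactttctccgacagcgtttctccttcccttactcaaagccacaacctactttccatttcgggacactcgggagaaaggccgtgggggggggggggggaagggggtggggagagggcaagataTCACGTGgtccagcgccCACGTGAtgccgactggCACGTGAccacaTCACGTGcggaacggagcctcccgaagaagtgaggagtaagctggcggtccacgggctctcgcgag
Gaa: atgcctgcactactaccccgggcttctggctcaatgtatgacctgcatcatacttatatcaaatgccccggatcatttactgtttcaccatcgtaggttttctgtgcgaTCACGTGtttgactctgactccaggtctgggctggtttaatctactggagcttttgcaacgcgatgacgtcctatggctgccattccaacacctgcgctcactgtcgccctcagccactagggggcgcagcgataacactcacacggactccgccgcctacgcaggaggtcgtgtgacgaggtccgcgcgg
The stretch of Lgmn, 1 of 2 listed for this gene, lies inside the span of the gene (chr12:102394082-102439728), not at its outermost start. This stretch is at chr12:102439043-102439342 on the minus strand, with its motif 50 bases before its own start. That of Sgsh, at chr11:119355461-119355760 on the minus strand, has the motif 29 bases before the start. The promoter of Lamp1, at chr8:13158911-13159210 on the plus strand, holds 4 copies, the first of them 62 bases before the start, and that of Gaa, at chr11:119267713-119268012 on the plus strand, has 1 copy 141 bases before it. Neu1, Scarb2 and Psap, named here after their values were seen (0.99, 0.89 and 0.85, against 0.91, 0.70, 0.43 and 0.68 for Lgmn, Sgsh, Lamp1 and Gaa), had none of the 3 forms in this window.

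With rapamycin, 8 of the 39 genes were higher in Tsc2Δpodocyte than in Tsc2flox/flox podocytes and 0 were lower (1 at an unadjusted p under 0.05), against 6.20% of all genes higher and 4.97% lower. The median log2 fold change was 0.25, against 0.01 for all genes. For 15 genes every deleted sample lay above every control, which held for 10.7% of all genes. For 0 every sample lay below, a case that was not counted over all genes. All 8 genes called higher had also been higher without rapamycin. They were the proteases Ctsb and Lgmn, the glycan enzymes Neu1, Sgsh, Galc, Man2b1 and Manba, and the membrane protein Scarb2, with none of the lipid enzymes and soluble proteins by their brightest probes.

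Neu1 read 4.37, 4.20, 4.79 and 4.14 on the treated Tsc2Δpodocyte arrays against 3.38, 3.70, 3.34 and 3.31 on the treated controls (0.95, standard error 0.14, adjusted p = 0.00227). Lgmn read 5.19, 4.86, 5.36 and 5.18 against 4.17, 4.47, 4.34 and 4.41 (0.80, standard error 0.12, adjusted p = 0.00251). Sgsh read 6.59, 6.56, 6.87 and 6.53 against 6.12, 6.07, 5.65 and 5.78 (0.73, standard error 0.12, adjusted p = 0.00455). In these 3 genes the groups were apart, and the differences were close in size to those without rapamycin (0.99, 0.91 and 0.70). Ctsb read 6.58, 6.80, 6.91 and 6.86 against 6.05, 6.24, 6.36 and 6.22, still apart but with a difference of 0.57 (standard error 0.12, adjusted p = 0.0096) in place of 1.06. Galc read -1.38, -1.73, -1.04 and -1.49 against -1.88, -2.69, -2.13 and -1.92 (0.75, standard error 0.18, adjusted p = 0.0196). Man2b1 read 2.10, 2.28, 2.58 and 2.54 against 1.86, 1.93, 1.95 and 1.84 (0.48, standard error 0.12, adjusted p = 0.0252). Both enzymes kept their groups apart. Scarb2 read 2.58, 2.52, 2.93 and 2.64 against 2.09, 2.02, 2.28 and 2.46 (0.46, standard error 0.13, adjusted p = 0.035). Manba read 1.47, 1.14, 1.47 and 1.31 against 0.75, 1.29, 0.82 and 0.94, and here the second control lay among the deleted samples (0.40, standard error 0.12, adjusted p = 0.0474).

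The calls of Galc, Man2b1, Scarb2 and Manba with rapamycin lay near the threshold, and each ended in 3 to 6 of the 8 fits that left out 1 array. Over these 8 fits the log2 fold change stayed between 0.57 and 0.85 for Galc, 0.41 and 0.57 for Man2b1, 0.37 and 0.54 for Scarb2, and 0.33 and 0.51 for Manba. Without Tsc2Δpodocyte replicate 3 or Tsc2flox/flox replicate 3, all 4 missed the threshold and 4 genes remained higher, namely Ctsb, Lgmn, Neu1 and Sgsh. Over the fits that left out 1 array, the adjusted p of lost calls lay between 0.051 and 0.0582 for Galc, 0.0525 and 0.0718 for Man2b1, 0.0598 and 0.0954 for Scarb2, and 0.077 and 0.132 for Manba. The other arrays concerned were Tsc2Δpodocyte replicate 1 for Galc, Scarb2 and Manba, Tsc2Δpodocyte replicate 4 for Man2b1, Scarb2 and Manba, Tsc2flox/flox replicate 1 for the same 3 genes, Tsc2flox/flox replicate 2 for Scarb2, and Tsc2flox/flox replicate 4 for Man2b1 and Manba. Hexa, which had not passed (0.64, adjusted p = 0.0503), passed without Tsc2Δpodocyte replicate 2 (adjusted p = 0.0174). Idua had a difference of -0.51 with rapamycin (adjusted p = 0.0777), close to its -0.54 without, and passed as lower without Tsc2Δpodocyte replicate 2 or Tsc2flox/flox replicate 2 (adjusted p = 0.0374 and 0.0354). The second probe of Grn passed again (0.74, adjusted p = 0.00581), the dimmest did not (0.57, adjusted p = 0.062), and the brightest was at -0.12. In the same comparison the median log2 fold change of the macrophage and leukocyte markers was -0.06, with 8 of 18 positive and 0 passing, none of them higher at an unadjusted p under 0.05 and 2 lower.

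Whether rapamycin altered the difference between genotypes was asked by the interaction. Of the 39 genes 0 passed, as did 0% of all genes in either direction. The log2 fold change between genotypes was compared with its sign kept, not by its size. At an unadjusted p under 0.05 it was higher under rapamycin for 0 of the 39 genes and lower for 5, against 565 and 477 of the 14095 genes tested. These 5 were Psap (-0.62, standard error 0.18), Ctsb (-0.49, standard error 0.17), Scarb2 (-0.44, standard error 0.18), Ctsk (-1.91, standard error 0.79) and Asah1 (-0.34, standard error 0.16). Their adjusted p in limma were 0.615, 0.623, 0.664, 0.664 and 0.679. With its sign kept, the log2 fold change between genotypes was lower with rapamycin for 29 of the 39 genes and for 6804 of the 14095 genes tested. Its median change was -0.21 over the 39 genes, 0.01 over all genes and -0.86 over the macrophage and leukocyte markers, all 18 of which were negative. With rapamycin Psap read 4.13, 3.90, 4.23 and 3.91 in the deleted samples and 3.49, 3.96, 3.98 and 3.83 in the controls, so that groups that had been fully apart overlapped (0.23, adjusted p = 0.27). Across the 39 genes the differences in the 2 comparisons, which share no arrays, correlated with a Pearson r of 0.58 and a Spearman rho of 0.71, against a Pearson r of 0.75 over all genes.

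Between rapamycin and untreated samples of the same genotype 0 of the 39 genes passed. In Tsc2Δpodocyte podocytes 2 were higher and 9 lower at an unadjusted p under 0.05, against 1849 and 1557 of the 14095 genes tested, and the median log2 fold change was -0.13. At the adjusted threshold 1.97% of all genes were higher and 1.53% lower. Asah1 (-0.38, adjusted p = 0.0736), Gla (-0.33, adjusted p = 0.0742) and Gaa (-0.67, adjusted p = 0.106) were nearest to passing. In Tsc2flox/flox podocytes 4 were higher and 0 lower at an unadjusted p under 0.05, against 1163 and 1073 of the 14095 genes tested, and the median was 0.10. At the adjusted threshold 0.106% of all genes were higher and 0.0568% lower. Ctsb moved from a mean of 7.09 ± 0.24 to 6.79 ± 0.15 in the deleted cells and from 6.03 ± 0.08 to 6.22 ± 0.13 in the controls (SD, n = 4 each), neither past the threshold (adjusted p = 0.149 and 0.457). Lgmn stayed at 5.16 ± 0.17 and 5.15 ± 0.21 in the deleted cells and at 4.25 ± 0.15 and 4.35 ± 0.13 in the controls. In both genotypes endothelial markers were lower with rapamycin, by a median of -1.94 in the deleted cells and -2.17 in the controls, with 0 of 11 passing and 8 at an unadjusted p under 0.05 in each.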

How the data were processed

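The 16 arrays, 4 for each combination of genotype and treatment, were read from scanner output. Per the file headers, the authors' spot intensity values come from Agilent Feature Extraction, which had subtracted the background and left them linear and unscaled between arrays. The program's version was 10.7.3.1. The deposited series table holds log2 values that the authors normalized and centred, which served as an alternative (lowest r with the present values over the 16 arrays, 0.99975). Signals were divided by the 75th percentile on their array and taken to log2, and repeated spots were averaged. Of 56605 probes, 33024 were matched to genes through RefSeq accessions and synonyms (GRCm38.p6). The test took the 27579 probes that some group had well above background on each of its 4 arrays. The 4 group means were estimated from all 16 arrays in limma 3.58.1 (R 4.3.3), with Benjamini-Hochberg adjustment over all probes tested within each comparison, 2-sided, and was tested on simulated data beforehand. Each gene was represented by its brightest detected probe. A gene was called at an adjusted p under 0.05, a fold of at least 1.5 being counted beside it. The number of arrays limits the precision, and no spot was saturated.

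The members and lists were chosen with earlier results of these data known. Array values were given for up to 4 members of each role with the smallest adjusted p without rapamycin, for members passing with rapamycin and for members that were lower, and for pathway lists up to 3 genes with the smallest p. Outside this rule, values were also given for Ctsd, Gaa and Ids, for all 3 probes of Grn, and for arrays that stood apart. Alternatives concerned scaling (quantile), background (normexp, offset 50), the filter on dim probes (none, or stricter), the source of the values (the series table), the samples fitted (8 arrays of a comparison), the test (the methods' t-test, unadjusted or adjusted, or a prior with trend and robustness), a block for replicate number, averaging of a gene's probes, a minimum fold and the omission of single arrays. Leaving out 2 arrays together was added after the data were seen. The values of 1 podocyte marker are not reported here.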

Additional observations from a re-analysis of the deposited data

Results flagged for a closer look

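In 10 of 156 sets of 4 arrays (39 genes in 4 groups) 1 array stood far from the other 3 of its group, where chance alone would give about 1 set in 20. Untreated Tsc2Δpodocyte replicate 3 was high for Ctsh (3.24, the others 2.41 to 2.52) and replicate 2 was high for Galns (0.29, the others -0.38 to -0.29). Among the untreated controls, replicate 2 was low for Naglu (3.43, the others 3.64 to 3.67) and Ppt1 (3.21, the others 3.55 to 3.61), and replicate 4 was low for Arsb (-4.53, the others -4.06 to -4.00). Of the treated Tsc2Δpodocyte arrays, replicate 3 was low for Glb1 (2.56, the others 3.13 to 3.16) and high for Sgsh (6.87, the others 6.53 to 6.59) and Mcoln1 (4.53, the others 3.63 to 3.75). Of the treated controls, replicate 2 was low for Idua (1.66, the others 2.12 to 2.20) and high for Cln3 (-0.39, the others -1.21 to -1.16). No gene passed the interaction of genotype and rapamycin.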

How the results depend on the processing

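Of 212 recomputed counts of genes called, 180 stayed within 1.5 times the reported count, 24 were smaller and 8 larger, and all 106 recomputed medians stayed within the spread between replicates. Without rapamycin the 18 higher genes numbered 11 by the methods' t-test (unadjusted, fold of at least 1.5) and 14 to 17 with 1 array left out. The 1 lower gene, Idua, became 0 with the series table's values, without the filter on dim probes, with a fit to the 8 arrays alone, by either form of the t-test, under the replicate block, the fold threshold and 2 arrays left out together, and the count was 0 to 1 with 1 array left out. With rapamycin the 8 higher genes numbered 4 with no filter, 4 with only the 8 arrays compared, 4 with the fold threshold, 5 and 3 by the t-test without and with adjustment, and 4 to 9 with 1 array left out, but 11 each with the series table's values, the trended prior and normexp. The 0 lower genes became 1 (Idua) under normexp and 0 to 1 with 1 array left out. The fits without a filter tested more probes, and the 8-array fits used fewer samples; the cause of the other changes was not tested. Grn with rapamycin turned from -0.12 by its brightest probe to 0.40 by the mean of its probes, and passed the test there. Between treated and untreated Tsc2Δpodocyte samples 1 gene was higher (Gusb) and 1 lower (Gaa) under normexp, 2 lower by the unadjusted t-test (Ctsk and Gaa), and 1 lower (Gla) under the trended prior and 1 under the replicate block. Deviations of same-numbered samples of the genotypes correlated at r from -0.30 to -0.01 untreated, and at -0.02, 0.46, 0.17 and 0.29 with rapamycin, where 3 of 4 pairs were positive. Since not every pair correlated and no label ties the numbers, they were not taken as pairs. With the replicate block 17 genes were higher without rapamycin and 6 with it, Manba and Scarb2 missing the threshold. Ctsk, near the background, had the largest standard error of the 39 genes.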
